A study of Daphnia magna with 48 samples.

Results

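The libraries described here compare whole Daphnia magna exposed for 1 day to a mixture of copper and arsenic with control animals of the same day. Daphnia magna is a freshwater crustacean used in toxicity testing. The members were taken by the labels: 4 mixture libraries and 4 control libraries of day 1, which are 8 of the 48 libraries in the series. The series crosses 4 treatments (mixture, arsenic, copper and control) with days 1, 2 and 4, with 4 libraries in each of 12 groups. All animals came from a field population kept in M4 medium under a fixed light cycle with daily feeding, and RNA came from whole bodies. The sources used here state neither the metal doses nor the age of the animals nor how many animals went into a library. They also do not say whether replicate libraries stem from separate cultures. A p-value below therefore reflects only how much libraries differed among themselves, and that spread may be technical. In tests of genes the spread was pooled within groups over all 48 libraries, unless fewer are named.

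Copper is an essential metal that serves as a cofactor of respiratory and antioxidant enzymes and becomes toxic in excess. Arsenic binds thiol groups of proteins and disturbs energy metabolism and redox balance. Animals exposed to either metal are known to draw on metal-binding metallothioneins, glutathione, antioxidant enzymes and heat shock proteins. None of these could be looked up here, because 0 of the 16066 identifiers in the count table matched the RefSeq gene table of assembly ASM2063170v1.1. The files do not pair identifiers with names, so no gene below has a known function, no list of stress genes was tested, and the sequence behind an identifier is not shown. Whether a gene given here shares reads with a paralog or with a neighbour that overlaps it is unknown.

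Few genes differed between mixture and control after 1 day. Of 15813 genes tested, 4 were called (edgeR quasi-likelihood test, Benjamini-Hochberg adjusted p under 0.05), which is 0.0253% of those tested. All 4 were higher in the mixture, by 1.74-fold to 2.59-fold, and 0 were lower. All 4 belonged to the more abundant genes. The test pooled the spread over all 48 libraries, and 0 genes were called in a fit of the 8 mixture and control libraries alone. On day 2 the difference between mixture and control had the opposite sign, without passing the test, for all but the gene with the smallest fold. The change between days was called for the 2 genes with the largest folds. The day-1 difference that chose them is part of that change. In RNA from whole bodies, more cells of a type and more RNA per cell cannot be told apart.

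The libraries held 12.2 M to 17.3 M counts (1 M is 1000000 counts) in the mixture and 11.4 M to 16.7 M in controls. Control replicate 4 stood apart from the others. In it 479 genes lacked any count, against 59 to 122 genes per mixture library and 54 to 149 per other control library. On the first principal component of the 16 day-1 libraries, which held 20.6% of the variance, it lay at 82.6, while the other 15 libraries lay between −32.8 and 26.8. The mean number of genes with no count was 87.8 ± 29.8 in the mixture and 185 ± 201 in controls (SD, n = 4 each), a difference of −97.2 (exact permutation test, two-sided, p = 0.543). That difference was 0.75 without control replicate 4. The share of counts held by the 100 most abundant genes was 26.2 ± 1.29% in the mixture and 26.4 ± 1.87% in controls (SD, n = 4 each, exact permutation p = 0.857). With 4 against 4 libraries the exact test cannot go below 0.0286. Within each group every pair of libraries differed by more than sampling noise, with a chi-square per degree of freedom of at least 13.6. Values without control replicate 4 are given below beside those with it.

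**Figure D1:**
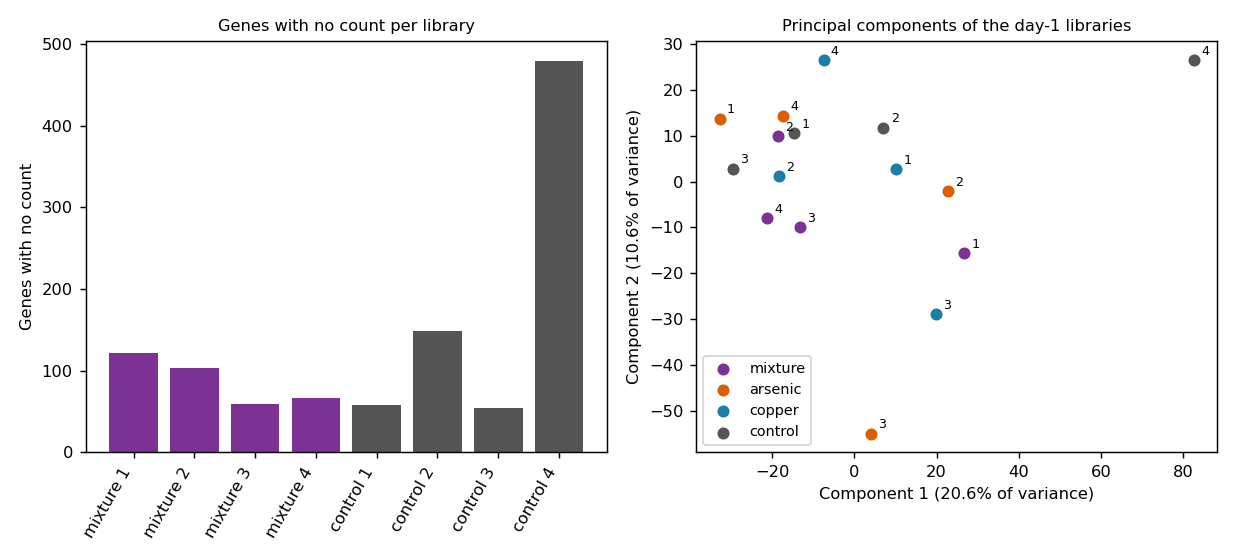
Left, number of genes with no count (of 16066) in each mixture and control library of day 1. Right, first and second principal components of log2 CPM in the 16 libraries of day 1, with 1 point per library and its replicate number beside it. Control replicate 4 has 479 genes with no count and lies alone at 82.6 on the first component.

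Levels are given in CPM, counts per 1000000 counts of the library after TMM scaling. Among the 4 called genes the largest fold change belonged to Dapma7bEVm002921t1. In mixture replicates 1 to 4 it stood at 209, 271, 246 and 293 CPM, against 97.9, 129, 96.5 and 70.2 CPM in control replicates 1 to 4. The lowest mixture library lay far above the highest control, and control replicate 4 was the lowest of the 8. The group means were 255 ± 36.1 CPM in the mixture and 98.4 ± 24.1 CPM in controls (SD, n = 4 each), and these levels rested on 3364 to 5265 counts per mixture library and 864 to 1643 per control library. The log2 fold change was 1.37 (SE 0.23, edgeR adjusted p 0.00283). Without control replicate 4 it was 1.24, with an adjusted p of 0.0747, and in a fit of these 8 libraries alone 1.36, with an adjusted p of 0.0937. The range over 16 alternatives was 1.18e-05 to 0.0937, and 14 passed the threshold.

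The lowest p belonged to Dapma7bEVm000727t1. It stood at 211, 238, 239 and 224 CPM in mixture replicates 1 to 4, against 119, 136, 121 and 121 CPM in control replicates 1 to 4. Both groups were tight and did not overlap. The means were 228 ± 13.2 CPM in the mixture and 124 ± 7.87 CPM in controls (SD, n = 4 each), with 2957 to 4031 counts per mixture library and 1386 to 1999 per control library. The log2 fold change was 0.88 (SE 0.13, edgeR adjusted p 0.00123). Control replicate 4 was ordinary for this gene, and without it the log2 fold change was 0.86 with an adjusted p of 0.0169. The adjusted p passed the threshold in 15 of 16 alternatives (range 7.18e-06 to 0.0672). The exception was the fit of these 8 libraries alone. That fit has fewer degrees of freedom for the spread, and why it missed the threshold was not tested.

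The third gene by p stood at 311, 382, 341 and 338 CPM in mixture replicates 1 to 4, against 200, 241, 196 and 147 CPM in control replicates 1 to 4. Control replicate 4 was again the lowest library, and the groups did not overlap. Its log2 fold change was 0.81 (SE 0.15, edgeR adjusted p 0.00954). It was 0.69 without control replicate 4, with an adjusted p of 0.137. The fourth gene stood at 111, 99.6, 91.5 and 84.7 CPM in mixture replicates 1 to 4, against 56.3, 69.1, 46.9 and 50.2 CPM in control replicates 1 to 4. The groups again did not overlap, and control replicate 3 was the lowest. Its log2 fold change was 0.80 (SE 0.16, edgeR adjusted p 0.0345), and without control replicate 4 it was 0.75, with an adjusted p of 0.204. The third gene passed in 10 of 16 alternatives (adjusted p 5.0e-04 to 0.543) and the fourth in 7 of 16 (0.00428 to 0.543). All 4 genes kept their direction in the 16 alternatives. Since their groups did not overlap, leaving out 1 library could not have reversed it. With control replicate 4 left out their log2 fold changes were 0.69 to 1.24, against 0.80 to 1.37 with it.

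The number of called genes depended on single libraries. It was 1 without control replicate 4, and 2 without control replicate 3 or without mixture replicate 2. Leaving out mixture replicate 1 gave 5, of which 3 were higher and 2 lower; these 2 are not the lower genes described next, whose adjusted p was then 0.447 and 0.418. Leaving out any other of the 8 libraries gave 3 or 4, all higher. When only these 8 libraries were fitted, edgeR called 0 genes and 369 had an unadjusted p under 0.05. The 16 libraries of day 1 gave 2. DESeq2 called 8 genes, 6 higher and 2 lower, and the fit of day 1 with 1 surrogate variable called 3, of which 1 was lower.

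**Figure D2:**
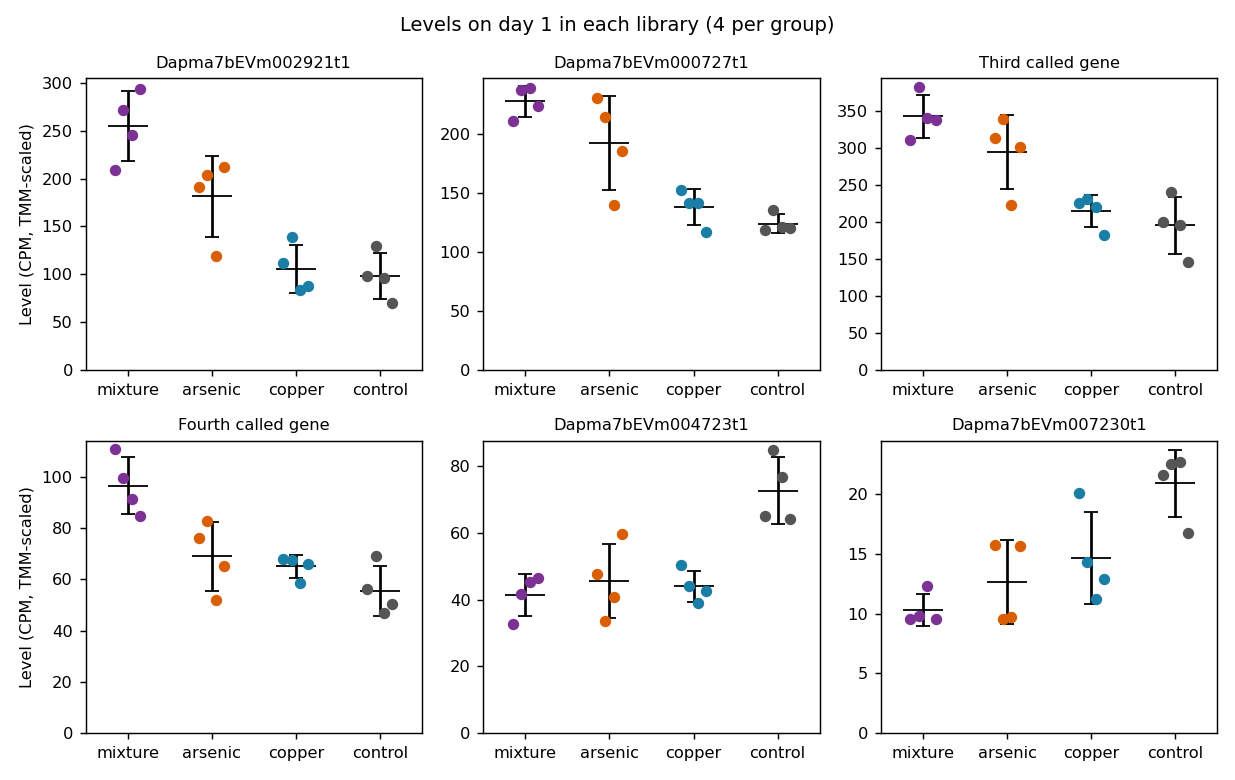
Level of 6 genes in each day-1 library, in CPM after TMM scaling, by treatment. Points are the 4 libraries of a group and black bars the mean ± SD. The 4 called genes are higher in every mixture library than in any control, and the last 2 genes, which did not pass the threshold, are lower in every mixture library than in any control.

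No gene was called as lower. Of the genes lower in the mixture, the 2 with the lowest p are given as values that did not pass. Dapma7bEVm004723t1 stood at 32.6, 41.7, 45.2 and 46.5 CPM in mixture replicates 1 to 4, against 65.0, 84.9, 76.9 and 64.0 CPM in control replicates 1 to 4 (log2 fold change −0.81, SE 0.17, edgeR adjusted p 0.0894). Dapma7bEVm007230t1 stood at 9.51, 9.80, 12.3 and 9.58 CPM in mixture replicates 1 to 4, against 21.6, 22.5, 22.7 and 16.7 CPM in control replicates 1 to 4 (−1.02, SE 0.23, adjusted p 0.151). The groups did not overlap in either gene. When control replicate 4 was left out, Dapma7bEVm004723t1 had a log2 fold change of −0.865 and Dapma7bEVm007230t1 of −1.114, both with an adjusted p of 0.137. The threshold was passed by Dapma7bEVm004723t1 in 2 of 16 alternatives (range of adjusted p 0.0122 to 0.543) and by Dapma7bEVm007230t1 in 1 of 16 (0.0201 to 0.475). With DESeq2 both passed, and with 1 surrogate variable for hidden structure among the day-1 libraries Dapma7bEVm004723t1 did (adjusted p 0.0441).

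Across the whole table the comparison was nearly balanced. At an unadjusted p under 0.05, 309 genes were higher in the mixture (1.95% of those tested) and 314 lower (1.99%), and the median log2 fold change of all genes was −0.00383. Together these were 623 genes (3.94%), below the share of 0.05 that this threshold passes when no gene differs. Neither set is therefore read as a list of changed genes. All 4 mixture libraries lay above all 4 controls in 143 genes (0.904%) and below them in 128 (0.809%). Of these, 83 and 73 had an unadjusted p under 0.05. If the 8 libraries were exchangeable, a share of 0.0286 of genes would stand apart in either direction by chance. The 2 shares together were below that, so these genes are no finding as a set. Without control replicate 4, the genes that did not overlap were 309 higher (1.95% of those tested) and 336 lower (2.12%). Only 3 controls were then left to compare with, so groups can stand apart more easily than with 4. Over all tested genes, 260 higher and 254 lower then had an unadjusted edgeR p under 0.05. The median log2 fold change was 0.56 among the 143 genes and −0.60 among the 128. In the order of p, the fifth gene was higher in the mixture (log2 fold change 0.81, adjusted p 0.0742), and the sixth and seventh were the pair of lower genes just given.

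**Figure D3:**
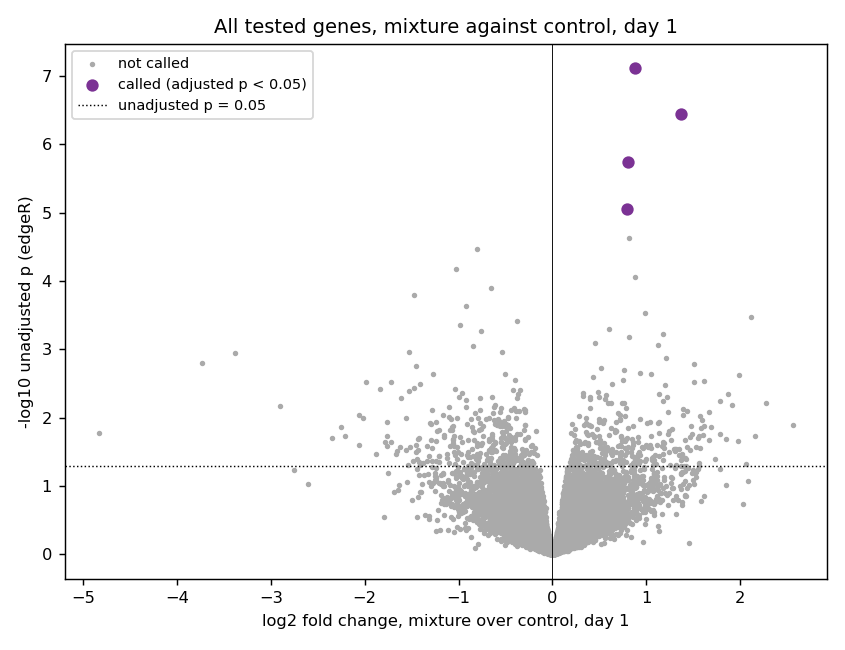
Each of 15813 tested genes by its log2 fold change, mixture over control on day 1 (x axis), and −log10 of its unadjusted edgeR p (y axis). The 4 called genes are in purple and all lie on the side higher in the mixture, while 309 genes on that side and 314 on the other lie above the dotted line at an unadjusted p of 0.05.

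Precision differed with abundance. When genes were split by mean CPM into 5 equal groups, the least abundant reached 2.06 CPM. There the median SE of the log2 fold change was 0.541, and 345 of 3163 genes differed more than 2-fold with 0 called. In the most abundant group, from 62.8 CPM upward, the median SE was 0.119, 4 of 3163 genes differed more than 2-fold and 4 were called. Among all genes, 210 were more than 2-fold higher and 188 more than 2-fold lower in the mixture, of which 93 and 90 had an unadjusted p under 0.05. Among the 100 most abundant genes of the series the log2 fold change lay between −0.495 and 0.321, and all 100 differed by less than 1.5-fold. Over the 8 libraries the called genes averaged 177, 176, 269 and 76.1 CPM in the order of fold, against a median of 14.1 CPM for all tested genes.

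Spread within the groups was compared over all genes. The median SD of log2 CPM per gene was 0.299 in the mixture and 0.348 in controls, and 0.25 in controls without replicate 4. Pairwise correlations across genes, which are not independent replicates, ran from 0.963 to 0.976 within the mixture, from 0.936 to 0.974 within controls and from 0.940 to 0.979 between the groups. With control replicate 4 left out the lowest were 0.964 within controls and 0.957 between the groups.

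Levels with each metal alone were set beside the mixture to see whether either came near it. Comparisons of mixture, arsenic and copper with control share the same control libraries, so levels rather than overlaps are given. Dapma7bEVm002921t1 averaged 255 ± 36.1 CPM in the mixture, 182 ± 42.5 with arsenic, 106 ± 25.3 with copper and 98.4 ± 24.1 in controls (SD, n = 4 each). Arsenic replicate 3, at 119 CPM, was the lowest arsenic library and within the range of controls, and the other 3 arsenic libraries stood at 192 to 212 CPM, above every control. Dapma7bEVm000727t1 averaged 228 ± 13.2 CPM in the mixture, 193 ± 39.9 with arsenic, 138 ± 15.1 with copper and 124 ± 7.87 in controls (SD, n = 4 each). Its arsenic replicate 3 was again the lowest arsenic library, at 140 CPM, against 186 to 231 CPM in the others.

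The third gene averaged 343 ± 29.5 CPM in the mixture, 294 ± 50.2 with arsenic, 215 ± 21.9 with copper and 196 ± 38.4 in controls (SD, n = 4 each). The fourth averaged 96.6 ± 11.3 CPM in the mixture, 69.0 ± 13.5 with arsenic, 65.1 ± 4.4 with copper and 55.6 ± 9.77 in controls (SD, n = 4 each). The genes were chosen because mixture exceeded control in these libraries, so mixture at the top and control at the bottom of each order is no finding. In the fourth gene every mixture library lay above every arsenic library, whereas in the third the groups overlapped.

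The differences between mixture and each metal were tested directly. Against copper 2 genes were called, 0.0126% of those tested, and both were higher in the mixture. They were Dapma7bEVm002921t1 (log2 fold change 1.27, SE 0.23, edgeR adjusted p 0.0241) and Dapma7bEVm000727t1 (0.72, SE 0.13, adjusted p 0.0256). These calls were not firm: 0 genes were called when copper replicate 1, 3 or 4 or mixture replicate 3 or 4 was left out. Without copper replicate 2 the count was 1, without mixture replicate 1 it was 4, and without mixture replicate 2 it was 3. Over 16 alternatives the adjusted p ran from 3.1e-04 to 0.22 for Dapma7bEVm002921t1 and from 0.00176 to 0.3 for Dapma7bEVm000727t1. Against arsenic the count was 0 (0%) by edgeR, DESeq2 and limma alike, and 464 genes (2.93%) had an unadjusted edgeR p under 0.05. For Dapma7bEVm002921t1, which was not called, the log2 fold change over arsenic was 0.49, with a 95% interval of 0.04 to 0.94 (unadjusted edgeR p 0.0336). It was chosen for its rise in these same mixture libraries, so its interval does not show that the mixture exceeds arsenic. For Dapma7bEVm000727t1 the interval was −0.03 to 0.51, so a difference of up to that size in this gene was not settled at 4 libraries per group.

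Arsenic against control gave log2 fold changes of 0.88 (SE 0.22) for Dapma7bEVm002921t1 and 0.63 (SE 0.13) for Dapma7bEVm000727t1, with edgeR adjusted p of 0.387 and 0.123. Copper against control gave 0.10 (SE 0.22) and 0.16 (SE 0.13), with adjusted p of 0.981 and 0.967, so neither gene passed for either metal. Over all genes edgeR called 2 for arsenic against control, both lower (0.0126%), and 0 for copper against control (0%, with 776 genes, 4.91%, at an unadjusted p under 0.05). Dapma7bEVm004723t1 stood at 41.5 ± 6.29 CPM in the mixture, 45.4 ± 11.1 with arsenic and 44.0 ± 4.7 with copper, against 72.7 ± 10.02 in controls (SD, n = 4 each). All 12 exposed libraries, at 32.6 to 59.7 CPM, lay below the 4 controls, at 64.0 to 84.9 CPM. Dapma7bEVm007230t1 stood at 10.3 ± 1.33 CPM in the mixture, 12.7 ± 3.51 with arsenic and 14.6 ± 3.88 with copper, against 20.9 ± 2.81 in controls (SD, n = 4 each). Copper replicate 1, at 20.1 CPM, lay within the range of the controls, and the other exposed libraries lay below every control. Both genes were chosen because the mixture lay below these same controls, which also serve arsenic and copper. Exposed libraries below the controls are therefore no finding.

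Levels compared between arsenic and copper on day 1 come from neither the mixture nor the control libraries. The SE and p of that comparison do use the spread pooled over all 48 libraries, as did the test that chose the genes. They are therefore not independent of that choice. The comparison was added after the levels above had been seen. Of the 309 genes higher in the mixture than in controls at an unadjusted p under 0.05, 174 were higher with arsenic than with copper (56.3%), and of the 314 lower genes 125 were (39.8%), against 51.4% of all tested genes. An unadjusted p under 0.05 in that comparison was reached by 24 of the 309 as higher and 3 as lower, and by 3 of the 314 as higher and 19 as lower. Among all 15813 genes it was reached by 296 and 293. Dapma7bEVm002921t1 and Dapma7bEVm000727t1 were higher with arsenic by log2 fold changes of 0.78 (SE 0.22, unadjusted p 0.00122) and 0.48 (SE 0.13, unadjusted p 8.97e-04), both with an edgeR adjusted p of 0.999. The third gene gave 0.45 (SE 0.14) and the fourth 0.08 (SE 0.16). Between arsenic and copper the count of called genes was 0 (0%, edgeR), while 589 (3.72%) had an unadjusted p under 0.05. With the day-1 genes chosen without control replicate 4, 132 of 260 higher genes (50.8%) and 103 of 254 lower genes (40.6%) were higher with arsenic than with copper. An unadjusted edgeR p under 0.05 was then reached by 19 of the 260 as higher and 3 as lower. Among the 254 it was reached by 5 as higher and 16 as lower. Genes vary together, so these shares carry no test.

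The mixture was also set against the sum of the arsenic and copper effects on the log2 scale. Doses are not given, so such a sum does not settle additivity. The number of genes departing from the sum was 0 (0%) by edgeR, DESeq2 and limma, and 815 genes (5.15%) reached an unadjusted edgeR p under 0.05. Leaving out mixture replicate 1 gave 2 genes. Fitting day 1 by itself gave 2, both below the sum, and adding 1 surrogate variable to that fit gave 5, all below it. The departure was 0.39 (SE 0.32) for Dapma7bEVm002921t1, 0.09 (SE 0.19) for Dapma7bEVm000727t1, 0.09 (SE 0.20) for the third gene and 0.26 (SE 0.22) for the fourth. Of the 2 lower genes, Dapma7bEVm004723t1 departed by 0.59 (SE 0.25, 95% interval 0.095 to 1.085, unadjusted p 0.0207, edgeR adjusted p 0.853) and Dapma7bEVm007230t1 by 0.21 (SE 0.32).

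Separate mixture and control libraries of days 2 and 4 were used to ask whether the difference seen on day 1 persisted. On day 2 Dapma7bEVm002921t1 stood at 58.7, 52.9, 98.8 and 81.8 CPM in mixture replicates 1 to 4, against 130, 122, 142 and 97.0 CPM in control replicates 1 to 4. The order of the groups was turned round, with the mixture below the controls except for an overlap between mixture replicate 3 and control replicate 4. Dapma7bEVm000727t1 stood at 184, 144, 202 and 169 CPM in the mixture libraries of day 2, against 196, 224, 185 and 199 CPM in the controls, and the groups overlapped. Between day 1 and day 2 its mixture mean was lower, at 228 and 175 CPM, and its control mean higher, at 124 and 201 CPM.

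The change of the mixture effect between these days was called for both genes, 2 of 15813 (0.0126%), and the day-1 difference that chose the genes is part of it. For Dapma7bEVm002921t1 the log2 mixture effect of day 2 minus that of day 1 was −2.12 (SE 0.32, edgeR adjusted p 8.18e-04). For Dapma7bEVm000727t1 it was −1.08 (SE 0.19, adjusted p 0.00876). Dapma7bEVm002921t1 passed in 22 of 22 alternatives (adjusted p 5.88e-07 to 0.00712) and Dapma7bEVm000727t1 in 21 of 22 (3.77e-04 to 0.0607, the highest without mixture replicate 2 of day 2). Without control replicate 4 of day 1 the differences were −2.00 and −1.08 (adjusted p 0.00579 and 0.0301). For the third and the fourth gene the same difference was −0.94 (SE 0.20, adjusted p 0.0835) and −0.67 (SE 0.22, adjusted p 0.337). The number of genes called as changing between days was 23 without mixture replicate 1 of day 1, 13 without mixture replicate 3 of day 2, 4 without mixture replicate 4 of day 2 and 1 without mixture replicate 2 of day 2. DESeq2 called 27.

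**Figure D4:**
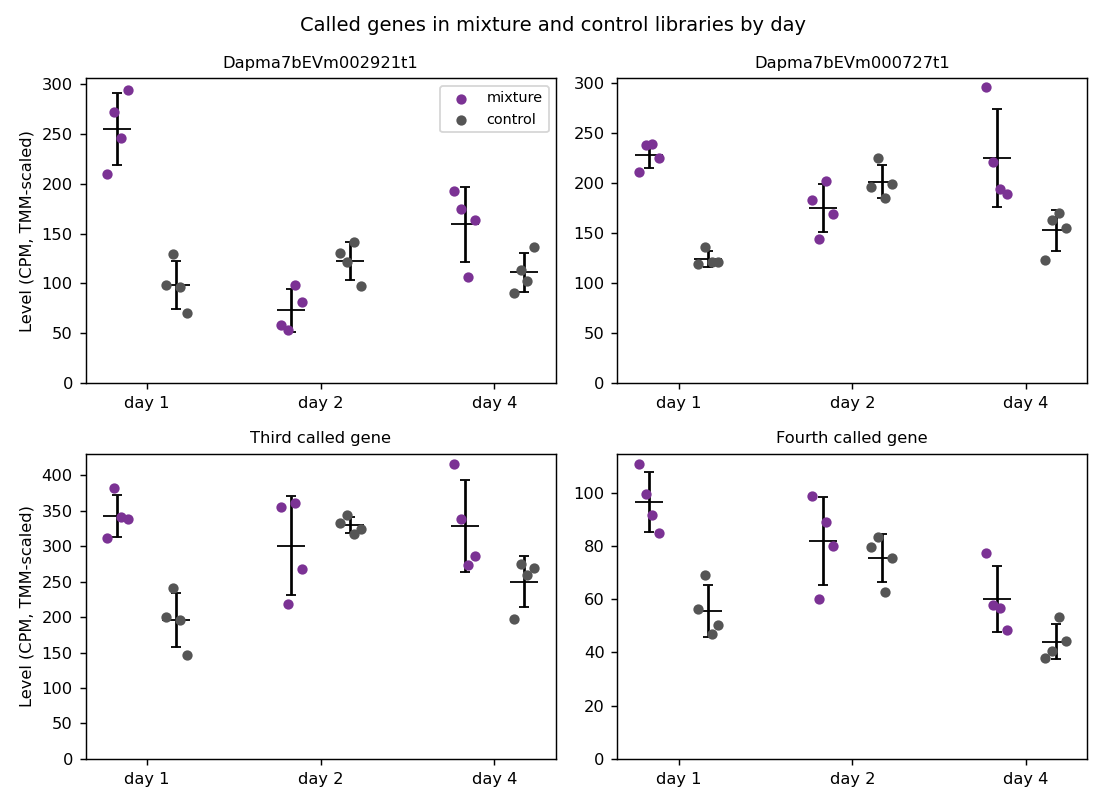
Level of the 4 called genes in mixture and control libraries on days 1, 2 and 4, in CPM after TMM scaling. Points are single libraries (4 per group and day) and black bars the mean ± SD. The groups are apart on day 1 in all 4 panels and overlap on day 2 in all 4. On day 2 the mixture mean is below the control mean in every panel but that of the fourth gene.

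On day 4 the mixture means were again above the control means in the 4 genes, without passing the test. Dapma7bEVm002921t1 stood at 192, 175, 106 and 163 CPM in mixture replicates 1 to 4, against 90.5, 114, 103 and 137 CPM in control replicates 1 to 4 (log2 fold change 0.52, SE 0.22, edgeR adjusted p 1). Dapma7bEVm000727t1 stood at 296, 221, 194 and 189 CPM in the mixture, against 123, 163, 170 and 155 CPM in controls (0.56, SE 0.13, adjusted p 0.274). The groups overlapped in the first of these genes and not in the second, whose highest library was mixture replicate 1. The log2 fold changes of the third and the fourth gene on day 4 were 0.39 (SE 0.14) and 0.45 (SE 0.16), both with an adjusted p of 1. The pair of lower genes from day 1 were read on the later days too. Dapma7bEVm004723t1 averaged 117 ± 20.2 CPM in the mixture and 120.3 ± 13.1 CPM in controls on day 2, and 104 ± 18 CPM in the mixture and 107 ± 10.2 CPM in controls on day 4 (SD, n = 4 each). In each group all 4 libraries of these days lay above those of day 1. Dapma7bEVm007230t1 averaged 16.6 ± 6.42 CPM in the mixture and 22.9 ± 4.04 CPM in controls on day 2, and 14.97 ± 1.12 CPM in the mixture and 21.9 ± 3.63 CPM in controls on day 4 (SD, n = 4 each). Neither difference passed for it (log2 fold changes −0.47 and −0.55, edgeR adjusted p 0.439 and 1). The change of the mixture effect between days 1 and 4 was called in 0 genes (0%) by edgeR, DESeq2 and limma, and 605 genes (3.83%) had an unadjusted edgeR p under 0.05.

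The later libraries were also read for the genes past an unadjusted p on day 1, as a description with no test. Of the 309 genes higher in the mixture on day 1 at an unadjusted p under 0.05, 129 were higher on day 2 (41.7%) and 153 on day 4 (49.5%). Among the 314 lower genes, 139 were higher on day 2 (44.3%) and 171 on day 4 (54.5%). Of all 15813 tested genes, 49.4% were higher in the mixture on day 2 and 48.3% on day 4. On day 2, 7 of the 309 reached an unadjusted p under 0.05 as higher and 32 as lower, and 8 of the 314 did so as higher and 24 as lower, beside 768 and 969 of all genes. These shares turned on control replicate 4. With the day-1 genes chosen without it, 144 of 260 higher genes (55.4%) and 76 of 254 lower genes (29.9%) were higher in the mixture on day 2, and 147 (56.5%) and 118 (46.5%) were so on day 4. On day 2, 8 of the 260 then reached an unadjusted p under 0.05 as higher and 8 as lower, and 3 of the 254 as higher and 30 as lower. For mixture against control edgeR called 23 genes on day 2 (0.145%) and 2 on day 4 (0.0126%). The 4 genes called on day 1 had adjusted p of 0.189 to 0.794 on day 2 and of 0.274 to 1 on day 4.

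The 4 called genes were also read in the rest of the series, where they varied together. These libraries entered the choice of genes only through the pooled spread and scaling. Over the 40 libraries outside mixture and control of day 1, with each group's mean taken off, Pearson's r was 0.55 between Dapma7bEVm002921t1 and Dapma7bEVm000727t1 (permutation p 2.4e-04, adjusted over 6 pairs 2.88e-04), and Spearman's rho was 0.495 (p 0.00132). Without the 2 libraries farthest from the median r was 0.511. By r with Dapma7bEVm002921t1, Dapma7bEVm000727t1 was only in place 225 of 15812 genes and the third called gene in place 52. The closest pair was Dapma7bEVm000727t1 and the third gene, with r = 0.848 and rho = 0.842 (both with the smallest p that 100000 permutations give here, 1e-05), and r = 0.802 without the 2 farthest libraries. Ranked by r with Dapma7bEVm000727t1, the third called gene was in place 1 and the fourth in place 3 of 15812 genes. Ranked by r with the third gene, the fourth was in place 29. The weakest pair was Dapma7bEVm002921t1 and the fourth gene, with r = 0.367 and rho = 0.348 (p 0.0194 and 0.0281, r = 0.37 without the 2 farthest libraries), and by r the fourth was in place 1626 of 15812 genes for Dapma7bEVm002921t1. Depth and the handling of a library are shared by all genes in it, and their part in these correlations was not tested.

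**Figure D5:**
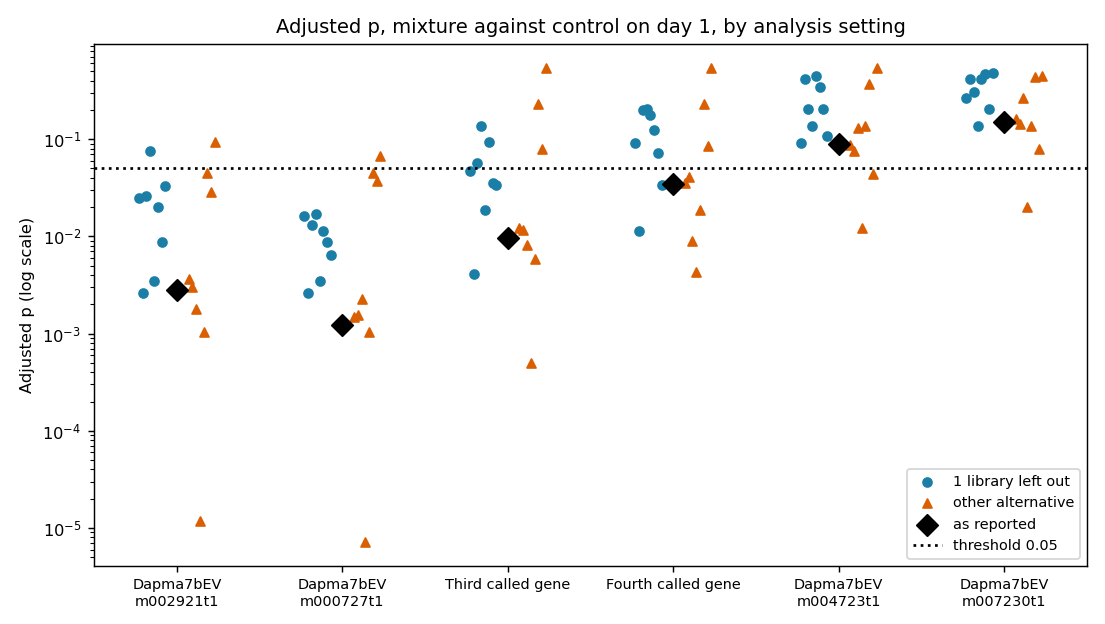
Adjusted p for mixture against control on day 1 (log scale) of the 4 called genes and the 2 lower genes that did not pass, as reported (diamond), with 1 library left out (circles) and under the other alternatives (triangles); the dotted line marks 0.05. Most points of Dapma7bEVm002921t1 and Dapma7bEVm000727t1 lie under the line, those of the third and the fourth called gene fall on both sides, and those of the last 2 genes lie mostly above it.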

How the data were processed

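RNA sequencing of 48 whole-body libraries was deposited as 1 table of counts per gene. TopHat2 2.1.1, HTSeq and edgeR are named, without role or order, per the submitters' processing notes; the build, the annotation and how strand was handled were not given in the sources used here. Although its name speaks of normalised values, the deposited table holds whole numbers with library totals from 7.93 M to 20.1 M (1 M is 1000000 counts), which were used as raw counts. Every gene has over 1 CPM in at least 3 libraries.

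Tested genes had 14 counts or more in 4 libraries or more, and 14 counts are about 1 CPM where a library holds the median of 13.3 M. Of 16066 genes, 15813 passed and 253 did not. EdgeR 4.0.16 (R 4.3.3) with TMM factors, 1 model of the 12 groups and quasi-likelihood F tests (two-sided) was used, with Benjamini-Hochberg adjustment over all genes within each of 11 comparisons. The biological coefficient of variation was 23.5%, with 36 residual and 5.08 prior degrees of freedom. SE was taken from the fold change and F. Intervals are 95% and cover the model's error. Correlations and principal components used log2 CPM with a prior count of 2. Counts of 0 allow up to 3 counts, 0.174 to 0.264 CPM in these 8 libraries; this covers counting error only. Alternatives were no filter, DESeq2 1.42.0 size factors or test, limma 3.58.1 (voom), fewer libraries, 1 surrogate variable (sva 3.50.0), a replicate block and leaving out each library. Steps were tested on simulated data.

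Named genes were the 2 called genes that rose most and, with none called as lower, the 2 lower genes with the lowest p; further called genes are described without identifier. The members and lists were chosen with earlier results of these data known.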

Additional observations from a re-analysis of the deposited data

Results flagged for a closer look

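A check took 1 gene level or library measure in the 4 libraries of 1 group. Among 54 such checks, 4 held a library far from the other 3, against 2.7 by chance at about 1 in 20 checks. The checks share libraries and are not independent, so the chance count is only a rough guide. Control replicate 1 of day 1 had a total of 16.7 M counts, above the other 3 controls. Control replicate 2 of day 1 was far from the others for Dapma7bEVm000727t1, at 136 CPM. Mixture replicate 3 of day 1 was so for Dapma7bEVm007230t1, at 12.27 CPM, and mixture replicate 2 of day 4 for the same gene, at 16.64 CPM. Control replicate 4 of day 1, described above as standing apart, was not flagged. Its 479 genes with no count and its share of counts in the 100 most abundant genes were among the measures checked.

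The mixture effect differed between days for Dapma7bEVm002921t1, with an effect on day 2 minus that on day 1 of −2.12 on the log2 scale, and for Dapma7bEVm000727t1, with −1.08 (edgeR interaction contrast, adjusted p 8.18e-04 and 0.00876). The day-1 difference that chose these genes is part of both values. On day 2 alone the log2 fold changes of mixture over control were −0.75 (SE 0.23, edgeR adjusted p 0.189) and −0.20 (SE 0.13, adjusted p 0.572), so neither passed.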

How the results depend on the processing

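The count of 4 genes for mixture against control on day 1 was 8 with DESeq2, 2 with the day-1 libraries alone, 0 with the 8 libraries alone, and 1 to 5 with 1 library left out. Against copper, 2 genes became 7 with DESeq2, 1 with the replicate block, 0 with the day-1 libraries alone, 0 with 1 surrogate variable, 0 with the 8 libraries of the pair alone, and 0 to 4 with 1 library left out. Departures from the sum, 0 as reported, were 2 with the day-1 libraries alone, 5 with 1 surrogate variable and 0 to 2 with 1 library left out. Genes whose mixture effect differed between days 2 and 1, 2 as reported, were 27 with DESeq2, 5 with the groups compared alone and 1 to 23 with 1 library left out. The counts against arsenic and for day 4 minus day 1 were 0 in every alternative run. The difference in genes with no count was −141 to 0.75 with 1 library left out, the positive value without control replicate 4. The difference in the share of the 100 most abundant genes was −1 to 0.482 percentage points, and positive without mixture replicate 1 (0.327), control replicate 1 (0.01) or control replicate 3 (0.482). Without control replicate 4, an alternative chosen after seeing the data, the genes whose groups did not overlap were 309 higher (1.95% of those tested) and 336 lower (2.12%). With it they were 143 (0.904%) and 128 (0.809%). The latter shares together were below the 0.0286 that chance gives for 4 against 4 exchangeable libraries. With fewer controls, groups stand apart more easily. The 6 genes described kept their sign against control in all 16 alternatives. They were chosen in these libraries and their groups did not overlap, so leaving out 1 library could not have reversed it. With DESeq2 size factors the median log2 fold change of all genes was −0.0108. Same-numbered mixture and control libraries of day 1 deviated with r between −0.144 and 0.0702, and differently numbered ones with r between −0.283 and 0.328. These values cannot show whether replicate numbers mark pairs. With the replicate block 5 genes were called against control and 3 for the change between days 1 and 2. The cause of these shifts was not tested. Fits of fewer libraries have fewer degrees of freedom, and the part of this in the shifts was not tested either. In the least abundant genes the median SE of 0.541 limits what could be called.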
